A study of Mus musculus with 12 samples.

Results

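The genes described here encode the hyperpolarization-activated channel subunits HCN2, HCN3 and HCN4 (Hcn2, Hcn3 and Hcn4) and TRIP8b (Pex5l), the auxiliary subunit of these channels. They are 4 of the 54446 gene identifiers counted, chosen by symbol and not by any measured value, and other HCN genes are not analysed here. The series holds RNA-seq libraries of polyadenylated RNA from 2 brain regions of 6 mice. The 4 groups were the hippocampus of Syt14-/- (knockout) mice, the hippocampus of Syt14+/+ (wild-type) mice, the cerebellum of the same knockout mice and the cerebellum of the same wild-type mice, with 3 libraries each. Each animal gave both tissues, so the 12 libraries stand for 3 knockout and 3 wild-type animals. The study set out to examine Syt14, a synaptotagmin gene, in relation to mood and motor coordination. The strain, age and sex of the mice, any breeding history and the part of Syt14 that was altered were not given in the sources used here.

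HCN channels open when the membrane becomes more negative, pass sodium and potassium, and carry the current known as Ih. Binding of cyclic AMP to their intracellular end makes some of them, such as HCN2, open more readily. The current helps to set pacing, resting potential and the decay of synaptic input along dendrites. TRIP8b binds the same end of the channel, directs its traffic to the membrane and to distal dendrites of hippocampal pyramidal neurons, and opposes the action of cyclic AMP. Purkinje neurons and the terminals of basket cells carry the current in the cerebellum.

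Totals were 24932098 to 30504437 counts per hippocampus library and 24355572 to 34971359 per cerebellum library. All 4 genes passed the filter on low counts in every comparison. Levels are CPM, the counts scaled by library size with TMM factors over the 12 libraries. A gene was called where edgeR's quasi-likelihood test over all genes tested gave an adjusted p (Benjamini-Hochberg) under 0.05. Summed markers of hippocampal pyramidal neurons were 5707 to 6118 CPM in the hippocampus and 162 to 248 CPM in the cerebellum, and those of Purkinje neurons 651 to 726 CPM in the hippocampus and 5732 to 7460 CPM in the cerebellum, so the tissues carried the markers of their labels. Cerebellum libraries also held brainstem markers in unequal amounts. Their sums were 30.2, 48.9 and 7.50 CPM in knockout mice and 14.9, 10.6 and 10.4 CPM in wild-type mice. Th alone made up 13.1, 15.7 and 6.40 CPM of the knockout sums and 9.97, 9.36 and 8.53 CPM of the wild-type sums. Choroid plexus markers summed to 962, 1762 and 26.4 CPM in knockout mice and 1935, 2671 and 1045 CPM in wild-type mice. Syt14 itself stood at 29.1 ± 1.32 CPM in knockout and 38.6 ± 0.407 CPM in wild-type hippocampus (SD, n = 3 each). In the cerebellum it stood at 30.5 ± 0.180 CPM in knockout and 35.2 ± 2.62 CPM in wild-type libraries. Every knockout library lay below the wild-type range, and 10.2% of hippocampus and 12.1% of cerebellum genes had genotypes that did not overlap. Its unadjusted edgeR p was 3.88e-05 in the hippocampus, the lowest of all genes tested there, and 0.00897 in the cerebellum. Neither passed the test (edgeR adjusted p = 0.686 and 0.644). Without the altered part of Syt14 known, its gene-level counts do not check the knockout. In bulk tissue, fewer cells of a type and less RNA per cell cannot be told apart.

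RefSeq promoter windows matched 2 of the 4 genes, Hcn2 and Hcn4, and are shown so that the upstream letters of these pore genes can be compared. Each line gives the 250 bases before the RefSeq transcript start on the plus strand of GRCm38.p6, 5′ to 3′, with matches to the GC box, GGGCGG or its reverse complement CCGCCC, in capitals. The Hcn2 window is chr10:79716384-79716633 and the Hcn4 window chr9:58822699-58822948.
Hcn2: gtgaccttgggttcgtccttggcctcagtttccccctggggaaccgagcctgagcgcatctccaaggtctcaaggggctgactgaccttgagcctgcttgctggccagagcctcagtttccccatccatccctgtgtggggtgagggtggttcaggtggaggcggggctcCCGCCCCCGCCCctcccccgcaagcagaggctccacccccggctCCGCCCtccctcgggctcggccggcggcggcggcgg
Hcn4: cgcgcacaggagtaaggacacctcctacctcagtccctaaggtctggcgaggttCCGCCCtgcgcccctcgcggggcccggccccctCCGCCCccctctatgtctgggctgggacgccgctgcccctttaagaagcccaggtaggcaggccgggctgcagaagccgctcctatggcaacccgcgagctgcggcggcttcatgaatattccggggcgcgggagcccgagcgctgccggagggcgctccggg
The Hcn2 window held 3 GC boxes and the Hcn4 window 2, and 32.7% of 32841 RefSeq windows of this length held at least 1. Neither window held the letters of a TATA box (TATAAA, in 12.4% of windows), an E box (CACGTG, 6.02%) or a cyclic AMP response element (TGACGTCA, 1.55%) on either strand. G and C made up 70.4% of the Hcn2 window and 71.2% of the Hcn4 window, against a median of 52.4% over all windows. A match is a run of letters and was not tested as a binding site. The GENCODE M21 start of Hcn4, used for the counts' annotation here, is base 58823412, downstream of the RefSeq start.

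Hcn2, the subunit with strong cyclic AMP gating that is found widely in the brain, had the most RNA per length of the 3 pore genes in both tissues and was lower in the hippocampus. The gene (ENSMUSG00000020331) is on chromosome 10, plus strand, from 79716634 to 79736108 with 3195 bases of exons. Knockout hippocampus held 134.4, 158.5 and 154.4 CPM, against 149.5, 144.2 and 154.7 CPM in wild-type hippocampus. Knockout cerebellum held 198.5, 184.4 and 190.7 CPM, against 197.2, 190.3 and 193.7 CPM in wild-type cerebellum. The genotype ranges overlapped in both tissues, while every hippocampus library lay below every cerebellum library. The knockout effect on the log2 scale was 0.0088 ± 0.06 (SE) in the hippocampus, with a 95% interval of -0.12 to 0.14, and -0.012 ± 0.04 in the cerebellum, with an interval of -0.11 to 0.087. Neither was called (edgeR adjusted p = 0.998 and 0.974). The lowest hippocampus value, 134.4 CPM in knockout library 1, came with the lowest summed oligodendrocyte markers of that tissue, at 4377 CPM against 4827 to 6526 CPM in the other libraries, and the part of these cells in the Hcn2 level was not tested.

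Between tissues Hcn2 was lower in the hippocampus, with a log2 difference of -0.36 ± 0.06 in knockout animals (edgeR adjusted p = 8.45e-04) and -0.37 ± 0.05 in wild-type animals (adjusted p = 1.2e-05). The hippocampus level was thus 0.781 of the cerebellum level in knockout animals and 0.776 in wild-type animals. Within each animal the difference was -0.56, -0.22 and -0.30 in knockout and -0.40, -0.40 and -0.32 in wild-type animals, below 0 in 6 of 6. Differences between these tissues were common: 64.1% of 18200 genes were called in knockout animals and 66.1% of 18128 in wild-type animals, and 58.7% and 57.9% of genes differed by at least as much as Hcn2. All 4 genes described here were called in both genotypes. Hcn3 and Pex5l were 2 of the genes higher in the hippocampus, which made up 31.6% of genes in knockout animals and 33.1% in wild-type animals, and Hcn2 and Hcn4 were 2 of the genes lower there, which made up 32.5% and 33%. The tissues did not overlap for 4 of 4 in either genotype, as for 70.4% of genes in knockout animals and 70.6% in wild-type animals, and an unadjusted p under 0.05 was reached by 4 of 4, against 67.3% and 68.9% of genes.

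**Figure D1:**
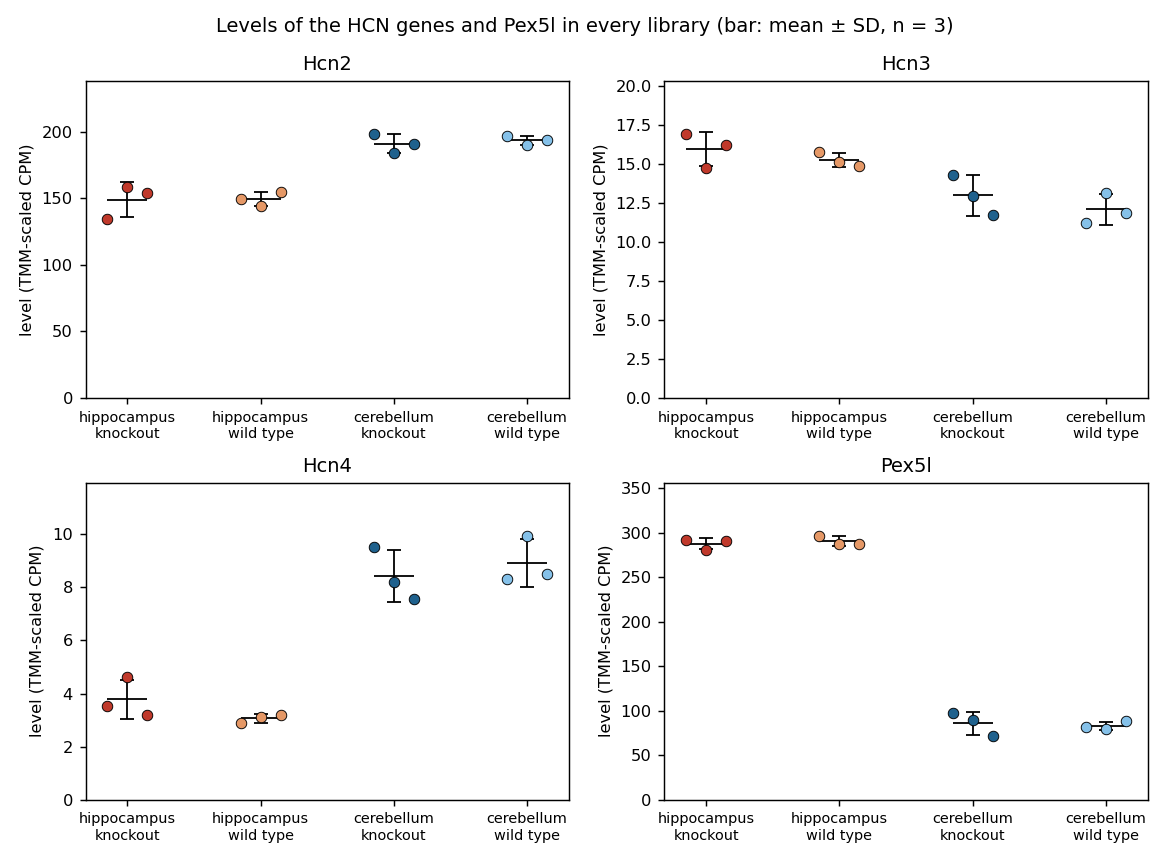
Level of each gene in TMM-scaled CPM (vertical axis from 0) in the 3 libraries of each of the 4 groups (points), with the group mean and SD (bars). Hcn2 and Hcn4 lie lower in the hippocampus than in the cerebellum and Pex5l lies at 280 to 297 CPM in the hippocampus against 71.9 to 97.0 CPM in the cerebellum. Knockout and wild-type ranges overlap, except for Hcn4 in the hippocampus, where the lowest knockout point lies narrowly above the wild-type points.

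Hcn3, a subunit that cyclic AMP does not shift to easier opening in the mouse, had less RNA than Hcn2 and Pex5l in both tissues and was slightly higher in the hippocampus. The gene (ENSMUSG00000028051) is on chromosome 3, minus strand, from 89146074 to 89160196 with 4154 bases of exons, of which 711 are shared with Pklr, a pyruvate kinase gene on the opposite strand that had 0 to 5 counts per library. In the hippocampus the level was 17.0, 14.8 and 16.2 CPM in knockout libraries and 15.8, 15.2 and 14.9 CPM in wild-type libraries. In the cerebellum it was 14.3, 12.9 and 11.7 CPM in knockout libraries and 11.2, 13.2 and 11.9 CPM in wild-type libraries. Knockout and wild-type ranges overlapped in both tissues. The log2 knockout effect was 0.08 ± 0.09 in the hippocampus (SE, 95% interval -0.12 to 0.27) and 0.11 ± 0.10 in the cerebellum (-0.12 to 0.34), with edgeR adjusted p of 0.995 and 0.887. With 1 library left out it ranged from 0.028, without knockout library 1, to 0.13, without knockout library 2, in the hippocampus, and from 0.032, without knockout library 1, to 0.18, without knockout library 3, in the cerebellum.

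The tissue difference of Hcn3 was 0.30 ± 0.10 in knockout animals (edgeR adjusted p = 0.0249) and 0.34 ± 0.09 in wild-type animals (adjusted p = 0.00567), so Hcn3 rose in the hippocampus relative to the cerebellum in both. All 6 animals had a value above 0, from 0.19 to 0.46 in knockout and from 0.20 to 0.49 in wild-type animals. These calls were the least stable of the 4 genes. Scaled to library totals alone, which moved the median difference of all genes to -0.16, Hcn3 stood at 0.16 in knockout animals (adjusted p = 0.184) and 0.20 in wild-type animals (0.0851). In knockout animals the call was also lost without hippocampus library 1 (0.26, adjusted p = 0.0757), cerebellum library 2 (0.30, 0.0630) or cerebellum library 3 (0.24, 0.0778).

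Hcn4, the slow subunit best known from the pacemaker cells of the heart, was the least abundant and was lower in the hippocampus than in the cerebellum. The gene (ENSMUSG00000032338) is on chromosome 9, plus strand, from 58823412 to 58863175 with 6118 bases of exons. The knockout hippocampus libraries held 85, 131 and 93 counts, or 3.53, 4.61 and 3.19 CPM, while wild-type hippocampus had 73, 82 and 81 counts, or 2.88, 3.12 and 3.19 CPM. All 3 knockout values lay above the wild-type range, but knockout library 3 did so by less than 0.01 CPM, and 10.2% of 17693 genes in this comparison had groups that did not overlap. Knockout cerebellum held 9.51, 8.21 and 7.57 CPM, against 8.31, 9.95 and 8.50 CPM in wild-type cerebellum, and the ranges overlapped. In the cerebellum the genotypes were apart for 0 of the 4 genes, against 12.1% of all genes.

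The hippocampal knockout effect on Hcn4 was 0.32 ± 0.19 on the log2 scale, a ratio of 1.24 with a 95% interval of 0.935 to 1.66, and it did not pass (edgeR adjusted p = 0.995). A two-sided exact permutation test on the log2 CPM values returned p = 0.1, the smallest that 3 against 3 libraries allow. Knockout library 2 weighed most in this value, which was 0.14 without it. Counting error is also wide at this depth. The exact Poisson 95% interval, which covers counting error only, was 3.86 to 5.48 CPM for that library. It was 2.82 to 4.37 CPM for knockout library 1 and 2.58 to 3.91 CPM for knockout library 3. For wild-type libraries 1, 2 and 3 it was 2.26 to 3.62, 2.48 to 3.87 and 2.53 to 3.96 CPM. In the cerebellum the effect was -0.08 ± 0.12 (95% interval -0.35 to 0.19, edgeR adjusted p = 0.928).

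Hcn4 fell in the hippocampus relative to the cerebellum, with a log2 difference of -1.15 ± 0.17 in knockout animals (edgeR adjusted p = 2.25e-04) and -1.54 ± 0.13 in wild-type animals (adjusted p = 4.27e-07). Its hippocampus level was 0.450 of the cerebellum level in knockout animals and 0.345 in wild-type animals. Per animal the log2 difference was -1.41, -0.82 and -1.23 in knockout animals, against -1.51, -1.65 and -1.40 in wild-type animals. A share of 22.1% of genes in knockout animals and 16.1% in wild-type animals differed as much. The interaction of tissue and genotype, which sets these differences against each other, was 0.39 ± 0.21 (95% interval -0.064 to 0.85) and did not pass (edgeR adjusted p = 0.927). It was 0.22 without hippocampus knockout library 2 and 0.50 without hippocampus knockout library 3 (edgeR adjusted p = 0.964 and 0.677).

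Pex5l, the gene of TRIP8b, had the largest tissue difference of the 4 genes, with about the same hippocampal level in every library. The gene (ENSMUSG00000027674) is on chromosome 3, minus strand, from 32949408 to 33143247 with 8846 bases of exons. The hippocampus held 291, 280 and 291 CPM in knockout libraries and 297, 288 and 288 CPM in wild-type libraries. The cerebellum held 97.0, 89.3 and 71.9 CPM in knockout libraries and 81.5, 79.0 and 88.4 CPM in wild-type libraries. The hippocampus values spread by a coefficient of variation of 2.16% in the knockout and 1.79% in the wild type, while the cerebellum values spread by 14.9% in the knockout and 5.87% in the wild type.

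The knockout effect on Pex5l was -0.004 ± 0.04 in the hippocampus on the log2 scale, and the 95% interval of the ratio was 0.939 to 1.06 (edgeR adjusted p = 0.998). In the cerebellum it was 0.06 ± 0.10, with an interval of the ratio of 0.900 to 1.21 (adjusted p = 0.934). The cerebellar value turned on single knockout libraries, being -0.035 without library 1 and 0.18 without library 3 (adjusted p = 0.998 and 0.365). Knockout library 3, the lowest in Pex5l, was also the lowest of the cerebellum in summed brainstem markers, at 7.50 CPM, of which Th was 6.40 CPM. Knockout library 2 had the highest sum, 48.9 CPM, but less Pex5l than knockout library 1. Wild-type library 3 had the lowest wild-type sum, 10.4 CPM, but the most Pex5l of the wild-type cerebellum. Knockout library 1, the highest in Pex5l, had the highest sum of pyramidal neuron markers in the cerebellum, 248 CPM. Nrgn, a marker in that sum, was 46.8 CPM there, against 2.44 to 3.76 CPM in the other cerebellum libraries. The pyramidal sum was lower in knockout library 2 than in knockout library 3, at 174.3 and 176.1 CPM, but Pex5l was higher. Among wild-type libraries the sums and Pex5l had the same order. The parts of brainstem tissue and of tissue with pyramidal neurons in the Pex5l level were not tested.

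Pex5l rose in the hippocampus relative to the cerebellum by 1.74 ± 0.10 on the log2 scale in knockout animals (edgeR adjusted p = 2.55e-07) and by 1.82 ± 0.05 in wild-type animals (adjusted p = 5.65e-12), which is 3.34-fold and 3.52-fold. The difference was 1.59, 1.65 and 2.02 in the knockout animals and 1.86, 1.86 and 1.70 in the wild-type animals. A difference of this size was found in 12.96% of genes in knockout animals and 12.99% in wild-type animals. Pex5l shares 340 bases of exon with Gm37459, an antisense RNA gene on the opposite strand that had 982 to 1383 counts per hippocampus library and 322 to 470 per cerebellum library. The libraries mark strand, but the strand setting of the counting was not given in the sources used here, so reads of the shared bases cannot be assigned to either gene. The counts of Gm37459 were below 7012, the lowest Pex5l count in the hippocampus, and below 2061, the lowest in the cerebellum. They do not show how many reads of the shared bases entered or left the Pex5l counts.

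**Figure D2:**
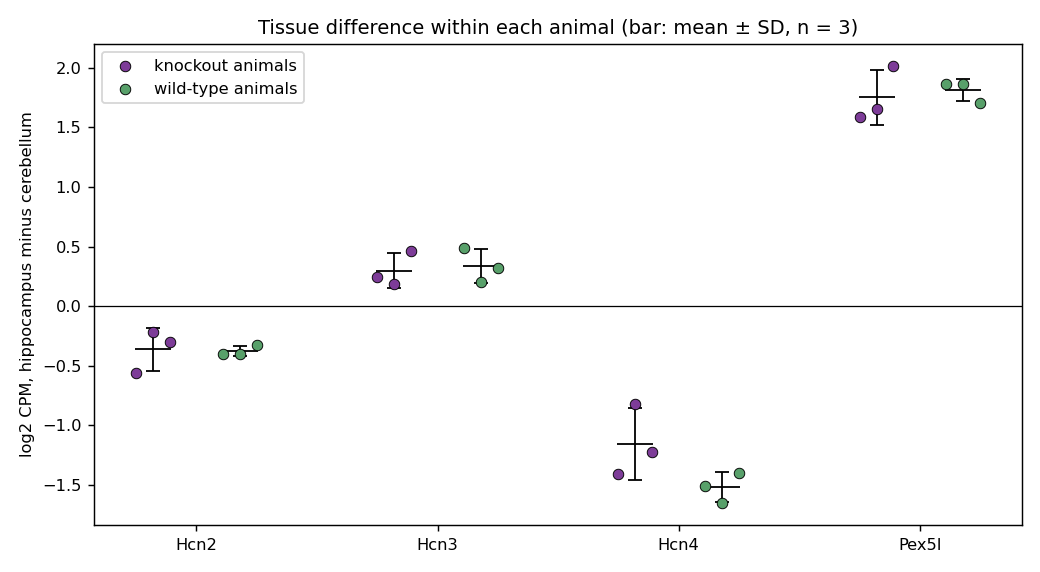
Log2 CPM in the hippocampus minus log2 CPM in the cerebellum of the same animal for each gene, with knockout animals left of wild-type animals (points: 3 animals per genotype, bars: mean and SD). The 6 animals lie on 1 side of 0 for each gene, above 0 for Hcn3 and Pex5l and below 0 for Hcn2 and Hcn4, and the genotypes overlap for each gene, least for Hcn4, whose knockout animals range from -1.41 to -0.82 and wild-type animals from -1.65 to -1.40.

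Between genotypes, 0 of 4 were called in the hippocampus, where edgeR called 0 (0%) of 17693 genes, and 0 of 4 in the cerebellum, where it called 2 (0.0113%) of 17733. An unadjusted p under 0.05 was reached by 0 of the 4 in either tissue, against 4.34% of hippocampus and 6.77% of cerebellum genes tested. DESeq2 and limma-voom also called 0 of the 4 in each tissue. For the difference of the knockout effect between the tissues edgeR called 2 (0.0105%) of 19027 genes and 0 of the 4, and an unadjusted p under 0.05 was reached by 5.34% of genes and 0 of the 4. That difference was 0.018 ± 0.08 for Hcn2, -0.033 ± 0.13 for Hcn3 and -0.066 ± 0.11 for Pex5l on the log2 scale (adjusted p = 0.999, 0.998 and 0.985). A missed threshold does not show that the genotypes are alike. In the hippocampus the intervals still allow a knockout level of up to 1.10-fold for Hcn2, 1.20-fold for Hcn3 and 1.66-fold for Hcn4. In the cerebellum they allow up to 1.27-fold for Hcn3 and 1.21-fold for Pex5l, and down to 0.785 of the wild type for Hcn4.

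**Figure D3:**
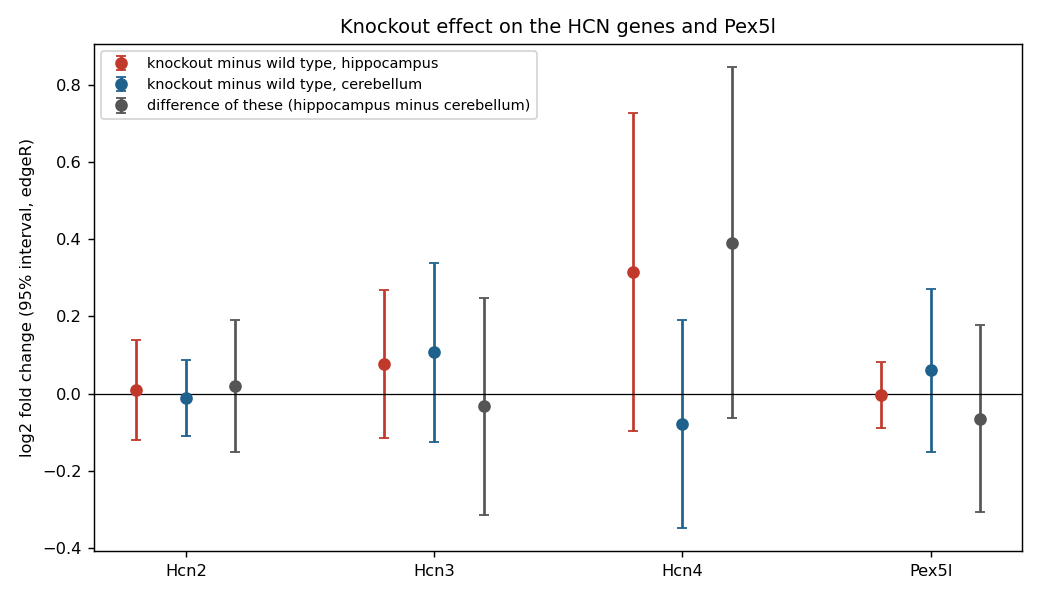
Log2 fold change of knockout over wild type for each gene by tissue, and the difference of these effects between the tissues (points: edgeR estimate, bars: 95% interval). Every interval includes 0, and the widest are those of Hcn4, from -0.096 to 0.73 in the hippocampus.

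Per length of exon, the order of the levels was Hcn2, Pex5l, Hcn3 and Hcn4 in all 4 groups, and no range of one gene met that of its neighbour in the order. Hcn2 stood at 46.7 ± 4.04 CPM per kb in knockout and 46.8 ± 1.66 CPM per kb in wild-type hippocampus, and at 59.8 ± 2.21 CPM per kb in knockout and 60.6 ± 1.07 CPM per kb in wild-type cerebellum (SD, n = 3 each). The Hcn2 level lay above that of 97.5% of detected genes, those with any count in the 12 libraries, in the knockout hippocampus and 98.5% in the knockout cerebellum. For Hcn3 these shares were 74.3% and 72.0%. Pex5l followed with 32.5 ± 0.701 CPM per kb in knockout and 32.9 ± 0.588 CPM per kb in wild-type hippocampus, and with 9.73 ± 1.45 CPM per kb in knockout and 9.38 ± 0.550 CPM per kb in wild-type cerebellum. Hcn3 held 3.85 ± 0.269 CPM per kb in knockout and 3.68 ± 0.112 CPM per kb in wild-type hippocampus, against 3.13 ± 0.311 CPM per kb in knockout and 2.91 ± 0.240 CPM per kb in wild-type cerebellum. Hcn4 was last, at 0.618 ± 0.121 CPM per kb in knockout and 0.501 ± 0.0263 CPM per kb in wild-type hippocampus, and at 1.38 ± 0.162 CPM per kb in knockout and 1.46 ± 0.147 CPM per kb in wild-type cerebellum.

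The proportions between the genes therefore differed by tissue. For each unit of Hcn2 RNA per length there was 0.701 ± 0.0742 of Pex5l in knockout and 0.703 ± 0.0273 in wild-type hippocampus, but 0.163 ± 0.0228 in knockout and 0.155 ± 0.00875 in wild-type cerebellum. Auxiliary subunit RNA thus stood lower against this pore gene in every cerebellum library than in any hippocampus library. The ratio of Hcn4 to Hcn3 per length was 0.162 ± 0.0434 in knockout and 0.136 ± 0.0111 in wild-type hippocampus, and 0.440 ± 0.0103 in knockout and 0.500 ± 0.0134 in wild-type cerebellum. Exon lengths were summed over all annotated isoforms, so these levels depend on the isoforms in use, which gene-level counts do not show. The alternative N-terminal ends of TRIP8b, known to set whether it raises or lowers channels at the surface, are not analysed here.

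**Figure D4:**
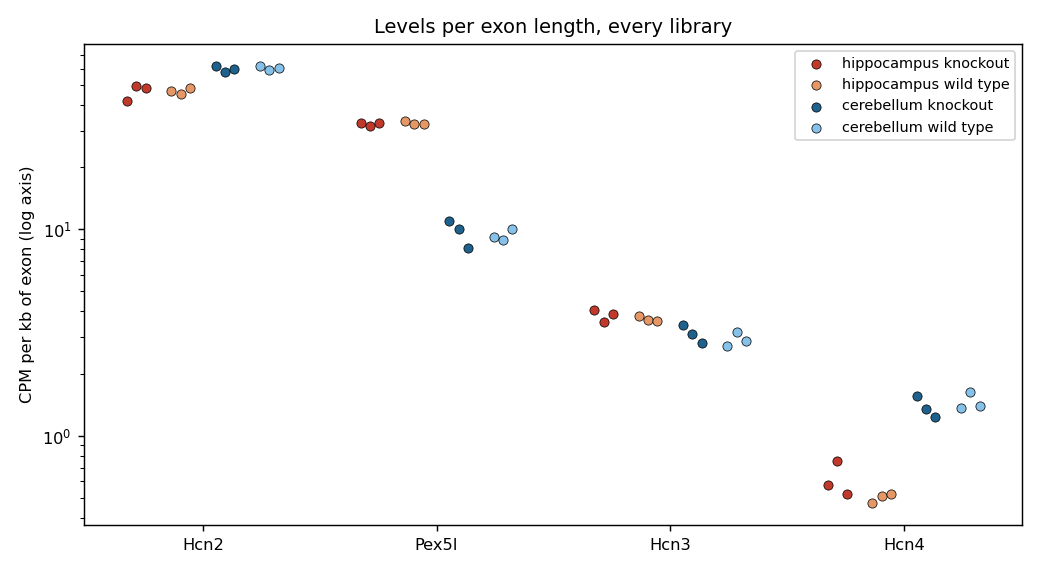
CPM per kb of annotated exon on a log axis for every library, by gene and group. Hcn2 is highest and Hcn4 lowest in all 4 groups, and the gap between Hcn2 and Pex5l is wider in the cerebellum, where Pex5l stands near 10 CPM per kb.

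Other genes had nearly the same pattern over the 12 libraries. Among 13470 protein-coding genes, likeness was measured as the root mean square difference of centred log2 CPM. The difference between the tissues enters this measure, and its share was not computed. Nearest to Hcn2 were Psmc5, a subunit of the proteasome cap (0.0388), Phyh, a peroxisomal enzyme of phytanic acid breakdown (0.0395), and Eif2s2, a translation initiation factor subunit (0.0439). Nearest to Hcn3 were Bud23 (0.0640), an RNA methyltransferase of ribosome synthesis, Thoc1 (0.0698), of the mRNA export complex, and Cacybp (0.0721). Nearest to Pex5l were Rgl1 (0.0525), an exchange factor for Ral, Arhgef4 (0.0725) and Tnfrsf21 (0.0761), a death receptor of the TNF receptor family. Rgl1 averaged 120 CPM in knockout and 121 CPM in wild-type hippocampus, and 34.9 CPM in knockout and 33.2 CPM in wild-type cerebellum. Hcn4 was matched less closely, by Tgfb3 (0.121), a growth factor, Recql4 (0.144), a DNA helicase, and Hlcs (0.150), which attaches biotin to carboxylases.

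Proteins that bind, modify or move HCN channels, or that regulate their genes, form a list of 24 matched genes, none of which was called between genotypes. Of those tested, 0 of 22 were called in the hippocampus and 0 of 23 in the cerebellum, with medians of 0.012 and 7.65e-04 on the log2 scale, beside 0.0017 and 0.0025 over all genes. Between tissues 14 were higher and 3 lower in the hippocampus in knockout animals, and 14 higher and 4 lower in wild-type animals, with medians of 0.31 and 0.36 beside -0.025 and -0.022 over all genes. The genes tested were 22 and 23, and over all genes 31.6% were higher and 32.5% lower in knockout animals, and 33.1% higher and 33% lower in wild-type animals. Akap5, which anchors protein kinase A at synapses, stood at 101 CPM in knockout and 102 CPM in wild-type hippocampus and at 7.95 CPM in knockout and 6.86 CPM in wild-type cerebellum. Grasp, which encodes the scaffold tamalin, differed by 3.71 in knockout and 3.72 in wild-type animals. Lower in the hippocampus were Prkg1, a cyclic GMP-dependent kinase, by -0.68 and -0.73, and Ptprz1, a receptor phosphatase, by -0.28 and -0.43. Kcne2, a small subunit able to join HCN channels and a gene of choroid plexus, had 8.37 ± 8.99 CPM in knockout and 20.4 ± 8.61 CPM in wild-type cerebellum and was chosen after its values were seen. Choroid plexus markers summed to 26.4 to 1762 CPM in knockout and 1045 to 2671 CPM in wild-type cerebellum, and their part in the Kcne2 level was not tested.

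Enzymes that make and break down cyclic nucleotides, the ligands of these channels, included genes higher and genes lower in the hippocampus. Of 32 tested, 12 were higher and 13 lower in the hippocampus in knockout animals, and 14 higher and 13 lower in wild-type animals. Of all genes, 64.1% were called in knockout and 66.1% in wild-type animals. The list's medians were 0.015 and 0.069. Pde1a, a calcium-activated phosphodiesterase, was higher by 5.36 in knockout and 5.89 in wild-type animals, at 240 CPM in knockout and 252 CPM in wild-type hippocampus. Pde2a, which cyclic GMP activates, averaged 5.82 CPM in knockout and 5.37 CPM in wild-type hippocampus, against 0.427 CPM in knockout and 0.263 CPM in wild-type cerebellum, where it did not pass the filter on low counts, so the size of its difference is uncertain. Pde1c (-3.58 and -3.18) and Pde5a (-2.94 and -2.84), a cyclic GMP phosphodiesterase, were lower. Between genotypes 0 of 32 were called in the hippocampus and 0 of 31 in the cerebellum, where 5 had an unadjusted p under 0.05, beside 6.77% of all genes. Of these, the phosphodiesterases Pde1a (0.44 ± 0.18), Pde1c (0.22 ± 0.10) and Pde10a (0.28 ± 0.12) had values above 0. Nos1 (-0.19 ± 0.06), which makes nitric oxide, and Npr1 (-0.26 ± 0.09), a receptor that makes cyclic GMP, had values below 0, and the edgeR adjusted p was 0.681 to 0.723 over the 5. These genes were named after their values were seen. An unadjusted edgeR p under 0.05 was also reached in the cerebellum by Nedd4l, Prkg2 and Pex10 of the other lists. In the hippocampus it was reached by Pde4a of this list and by Kcnk12, a leak channel gene.

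Conductances that set the resting potential together with Ih form a list of mostly leak channels and inward rectifiers. It also holds Clcn2, a chloride channel gene, and Unc79 and Unc80, which encode partners of the sodium leak channel. All 19 genes tested differed between the tissues, with 9 higher and 10 lower in the hippocampus in both genotypes. Over all genes 64.1% were called in knockout and 66.1% in wild-type animals, and the list's medians were -0.27 and -0.29. Kcnj4, an inward rectifier, averaged 94.6 CPM in knockout and 89.1 CPM in wild-type hippocampus, against 0.787 CPM in knockout and 0.421 CPM in wild-type cerebellum. Kcnk4, a mechanosensitive leak channel, was higher by 2.45 and 2.25. Kcnj12, another inward rectifier, was lower by -3.56 and -3.70, and Kcnk3, an acid-sensitive leak channel, by -2.94 and -2.95. Between genotypes 0 of 19 were called in either tissue. The cyclic nucleotide-gated channels, the closest relatives of the HCN family, were scarce: of 6 genes, 2 passed the filter in hippocampus libraries and 1 in cerebellum libraries, and 0 were called between genotypes.

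Pex5l is a relative of Pex5, the receptor that brings proteins into peroxisomes, and genes of peroxisomal import were set beside it. Of 13 tested, 1 was higher and 6 lower in the hippocampus in knockout animals, and 0 were higher and 6 lower in wild-type animals. Over all genes 31.6% were higher and 32.5% lower in knockout animals, and 33.1% and 33% in wild-type animals, and the list's medians were -0.18 and -0.13. Pex26 was lower by -0.68 and -0.60 and Pex2 by -0.68 and -0.53, both parts of the import machinery of the peroxisome membrane. Pex5 itself, chosen after its values were seen, stood at 54.6 CPM in knockout and 52.3 CPM in wild-type hippocampus and at 53.6 CPM in knockout and 56.8 CPM in wild-type cerebellum, with tissue differences of 0.026 ± 0.05 and -0.11 ± 0.05 (edgeR adjusted p = 0.680 and 0.0720). Between genotypes 0 of 13 were called in either tissue.

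**Figure D5:**
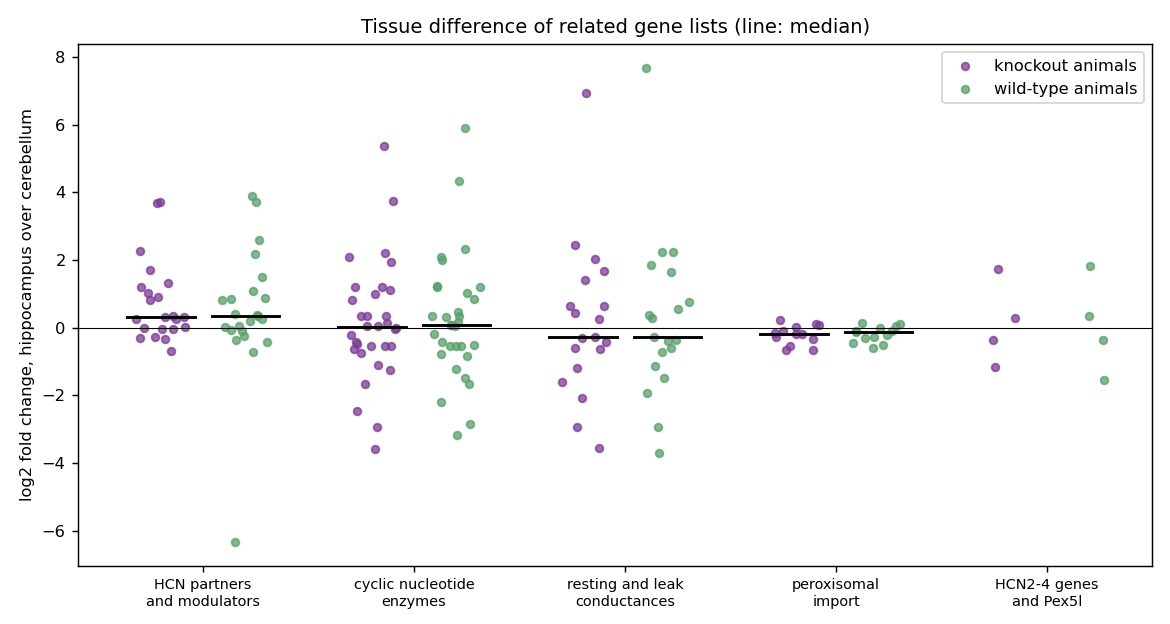
Log2 fold change of hippocampus over cerebellum for each tested gene of 4 related lists and for the HCN genes and Pex5l, with knockout animals left of wild-type animals (points: genes, lines: list medians). The peroxisomal import genes lie within 1 of 0, while the other lists spread more widely. The lowest point, Kcne2 in wild-type animals, averaged 0.246 CPM in the hippocampus and passed the filter only through the cerebellum, so its size is uncertain.

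Hippocampus columns carry the tag L1 in the deposited headers and cerebellum columns the tag L4, so tissue and this tag cannot be told apart in any tissue difference. The knockout comparisons each lie within 1 tag.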

How the data were processed

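Poly(A) RNA libraries, strand-specific by dUTP per the labels' protocols, were made from 2 tissues of 6 mice. Tools listed in the submitters' processing notes are featureCounts 2.0.3, STAR 2.7.10 and Trimmomatic 0.39, and the builds listed are mm10 and GRCm38. The authors deposited whole-number counts per gene, not normalized. The annotation release and strand setting were not given in the sources used here. Identifiers were matched to GENCODE M21 (54409 of 54446), which gave symbols, positions and exon lengths. Promoter windows are from RefSeq (GRCm38.p6), where 2 of the 4 genes matched.

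Genes were filtered (filterByExpr, minimum count 10, minimum total 15), scaled by TMM and tested with edgeR 4.0.16 in R 4.3.3 (quasi-likelihood, two-sided, Benjamini-Hochberg over all genes tested). Each tissue was fitted alone for genotype, each genotype alone for tissue, and all 12 libraries for the interaction. SE was taken as the log2 change divided by the root of F, and log2 CPM used a prior count of 2. DESeq2 1.42.0, limma-voom (limma 3.58.1), other scalings, no filter, blocks and left-out libraries were alternatives. Scripts were tested on simulated data. Python 3.11.15, pandas 2.3.3, numpy 2.4.6 and matplotlib 3.10.9 made tables and figures.

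Same-animal tissues are paired by the labels' animal numbers (correlation of deviations 0.0071 to 0.081), and the block by animal changed no call on the 4 genes. Replicates are separate animals, and no libraries of a group were duplicates (chi-square per gene 4.11 to 12.7). The genes and lists were chosen with earlier results of these data known. Named by rule were the 4 genes, Syt14, the 3 most alike genes of each and, per list, genes called between genotypes and up to 2 higher and 2 lower genes called between tissues in both genotypes with at least 1 CPM.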

Additional observations from a re-analysis of the deposited data

How the results depend on the processing

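Over 272 values of the 4 genes under alternative settings, 250 kept their direction and side of the threshold, 17 reversed and 5 lost a call. The tissue differences of Hcn2, Hcn4 and Pex5l kept both under every alternative run, and those of Hcn3 lost the call with library totals only (0.16 and 0.20) and, in knockout animals, without single libraries (0.24 to 0.38 over all left out). The 17 reversals were uncalled values near 0, each with 1 library left out, and the cause was not tested. Over the left-out libraries the hippocampal knockout effect ranged from -0.040 to 0.073 for Hcn2, from 0.028 to 0.13 for Hcn3, from 0.14 to 0.43 for Hcn4 and from -0.018 to 0.012 for Pex5l. The cerebellar effect ranged from -0.041 to 0.011 for Hcn2, from 0.032 to 0.18 for Hcn3, from -0.18 to 0.0094 for Hcn4 and from -0.035 to 0.18 for Pex5l. The interaction ranged from -0.028 to 0.083 for Hcn2, from -0.10 to 0.040 for Hcn3, from 0.22 to 0.50 for Hcn4 and from -0.18 to 0.027 for Pex5l.

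Genes called between genotypes in the hippocampus were 4 with DESeq2, 77 with no filter, 2 with the replicate number as a block and 0 to 2 with 1 library left out. In the cerebellum they were 36 with DESeq2, 417 with no filter, 36 with the replicate block, 4 in the fit of all 12 libraries and 2 to 33 with 1 library left out, 33 without knockout library 3. For the interaction they were 6 with DESeq2, 275 with no filter and 2 to 44 with 1 library left out, 44 without cerebellum knockout library 3. Samples of 1 replicate number in both genotypes are different animals, and their deviations correlated at -0.0081 to 0.044 in the hippocampus and 0.086 to 0.25 in the cerebellum. The block moved no call on the 4 genes. Depth limits Hcn4 most, with 73 to 131 counts per hippocampus library.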
